A study of Mus musculus with 19 samples.

Results

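The 10 genes described here encode the liver X receptors, their retinoid X receptor partners and proteins that move or dispose of sterols: Nr1h3, Nr1h2, Rxra, Rxrb, Abca1, Abcg1, Abcg5, Abcg8, Mylip and Lpcat3. They were chosen by gene name from the table of the series, which lists 54838 genes, and all 10 were found. All 10 passed the filter on low values and were among the 14743 genes tested. The values came from RNA-seq of 19 liver libraries of male C57BL/6JOlaHsd mice, which were 4 weeks old at the start. Mice were fed a normal diet (ND) or a Western diet (WD) for 4 months. The WD was rich in fat, cholesterol, sucrose and fructose and reduced in choline, and the labels call it a high fat diet. Subcutaneous micro-osmotic pumps delivered saline or AN1284, an indoline derivative, at 1 or 5 mg/kg/day for 8 weeks, so that saline controls of both diets also carried pumps. There were 3 libraries each of ND saline, ND with AN1284 1 mg/kg/day, ND with AN1284 5 mg/kg/day, WD saline and WD with AN1284 5 mg/kg/day, and 4 of WD with AN1284 1 mg/kg/day. The labels do not state that each library is 1 mouse, so p-values measure the spread between these libraries.

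Liver X receptors are nuclear receptors that bind oxysterols, the oxidized forms of cholesterol, and act as dimers with a retinoid X receptor. When cholesterol accumulates in a cell, they turn on genes that send sterol out of it, among them the ABC transporters Abca1 and Abcg1, which load cholesterol on lipoproteins, and Abcg5 and Abcg8, whose proteins join into 1 transporter that secretes cholesterol and plant sterols into bile. They also turn on Mylip, a ubiquitin ligase that removes the LDL receptor, Lpcat3, which inserts polyunsaturated fatty acids into phospholipids, and genes of fatty acid synthesis. Cholesterol synthesis and uptake are under a separate switch, SREBP2, which is held inactive when sterols are abundant.

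Each library held 23326800 to 32596067 counted reads. Values are the normalized counts of the authors, which are read counts divided by 1 size factor per library. Fold changes are differences of log2(normalized count + 1), given with their standard error, and a gene was called when its adjusted p (limma across all tested genes, Benjamini-Hochberg) was under 0.05. Size factors were 0.7592 to 0.7908 in ND saline and 1.0304 to 1.2679 in WD saline. Dividing by library totals instead moved the median of all genes by 0.43 in the diet comparison of saline livers, by −0.23 and −0.22 for AN1284 1 mg/kg/day and 5 mg/kg/day on the WD, and by 0.16 and 0.15 for the same doses on the ND. The share of higher among called genes then went from 52.9% to 84.9% for the diet in saline livers and from 55.4% to 66.7% for the diet at 5 mg/kg/day. For AN1284 on the WD this share went from 45% to 15.1% for 1 mg/kg/day and from 44% to 13.7% for 5 mg/kg/day, and on the ND from 62.5% to 91.1% and from 61.7% to 88.6%. For the differences of the AN1284 effect between the diets it went from 45.5% to 9.39% at 1 mg/kg/day and from 42.3% to 8.95% at 5 mg/kg/day.

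The ND saline libraries stood apart in the summed heat shock genes and in the clock gene Nr1d1, and other clock genes also differed from them. The summed normalized count of 8 heat shock genes was 56717 to 65139 in ND saline and 26052 to 41673 in the other libraries, and Nr1d1, a repressor in the circadian clock, had 135 to 464 in ND saline and 1117 or more elsewhere. The summed count of 14 clock genes was 7543 to 9312 in ND saline and 7726 to 8970 in WD saline. It was 8082 to 12832 in the libraries given AN1284. Called singly against ND saline, 2 of the 14 were higher and 2 lower with 1 mg/kg/day on the ND. With 5 mg/kg/day on the ND 4 were higher and 2 lower. The shares of all genes called in either direction were 4.63% and 10.2%. The part of the heat shock and clock genes in the comparisons that use ND saline was not tested. The comparisons of diets within each AN1284 dose, and of AN1284 with saline on the WD, do not contrast these libraries, which still enter the shared estimate of the spread. Hepatocyte markers were abundant in every library, as the label of liver requires, with Alb at 1010000 or more. Of 9 markers of T, B and NK cells 1 was higher and 1 lower on the WD in saline livers, and of 14 clock genes 2 and 3. Among all genes 28.1% were higher and 25% lower there. In bulk tissue fewer cells of a type and less RNA per cell cannot be told apart.

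The genes lie on several chromosomes of GRCm38. Abcg5 (chr17:84658234-84683011, minus strand) and Abcg8 (chr17:84676302-84700333, plus strand) are neighbours that are read away from each other, and a RefSeq start of each lies close to that of the other. The stretch between those starts is shown because both genes moved together in these libraries. It runs from chr17:84683012 to 84683120, is 109 bases long and is written on the plus strand, the strand of Abcg8, with matches to the GATA motif (AGATAA, either strand) in capitals.
Abcg5-Abcg8 stretch: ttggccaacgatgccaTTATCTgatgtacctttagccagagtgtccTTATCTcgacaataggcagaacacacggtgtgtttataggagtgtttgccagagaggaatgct
The 100 bases before the start of Abca1 (chr4:53030787-53159895, minus strand) are shown as those of an established receptor target. They lie at chr4:53159896-53159995 on the minus strand, and the capitals mark a match, with 3 mismatches, to a DR4, the arrangement of a pair of AGGTCA half-sites with 4 bases between them that receptor dimers recognise.
Abca1 bases before the start: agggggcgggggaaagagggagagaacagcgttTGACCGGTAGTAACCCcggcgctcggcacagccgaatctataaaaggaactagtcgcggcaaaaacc

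The RefSeq table of 300-base windows around gene starts (GRCm38.p6) held 13 windows for 9 of the 10 genes; Abcg1 had none. Allowing 3 mismatches in the 12 fixed letters of the DR4, on either strand, 2 of the 13 windows held a match: that of Abca1, 67 to 52 bases before the start, and 1 of the 2 windows of Rxra. Of all 32851 windows, 21.9% held such a match. AGATAA was in 2 of the 13 windows, those of Abcg5 and of the Abcg8 start beside it, which share the sequence, and in 11.2% of all windows. The half-site AGGTCA alone was in 1 of the 13 and in 16.3% of all, the GC box GGGCGG in 6 and in 35.7%, and the E-box CACGTG in 1 and in 7.15%. A match describes letters in the window and not a bound site.

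The other genes lie at chr2:91184061-91202834 (Nr1h3, minus strand), chr7:44549616-44553951 (Nr1h2, minus), chr2:27676440-27762957 (Rxra, plus), chr17:34031812-34038393 (Rxrb, plus), chr17:31057698-31115777 (Abcg1, plus), chr13:45389742-45412022 (Mylip, plus) and chr6:124663027-124704418 (Lpcat3, plus). Lpcat3 shares 334 exonic bases with Emg1 on the opposite strand, and Nr1h3 shares 34 with Gm13783 on its own strand, so that a part of their counts is uncertain.

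The level of the genes spanned more than 100-fold when counts were divided by exon length. In ND saline the mean normalized count per kilobase was 1872 for Rxra, 1064 for Nr1h3, 925 for Lpcat3, 452 for Abcg8, 412 for Abcg5, 387 for Abca1, 315 for Nr1h2, 202 for Rxrb, 49.0 for Mylip and 16.4 for Abcg1. Abcg8, Abcg5 and Abca1 lay within 1 SD of a neighbour in that order (SD 90.7, 51.8 and 47.2, n = 3). Among the receptors, Rxra stood 8.16 to 12.9 times above Rxrb per kilobase in single libraries and Nr1h3 2.75 to 4.72 times above Nr1h2. In WD saline Abcg1 had 96.7 ± 30.4 (SD, n = 3) per kilobase and remained the lowest of the 10.

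**Figure D1:**
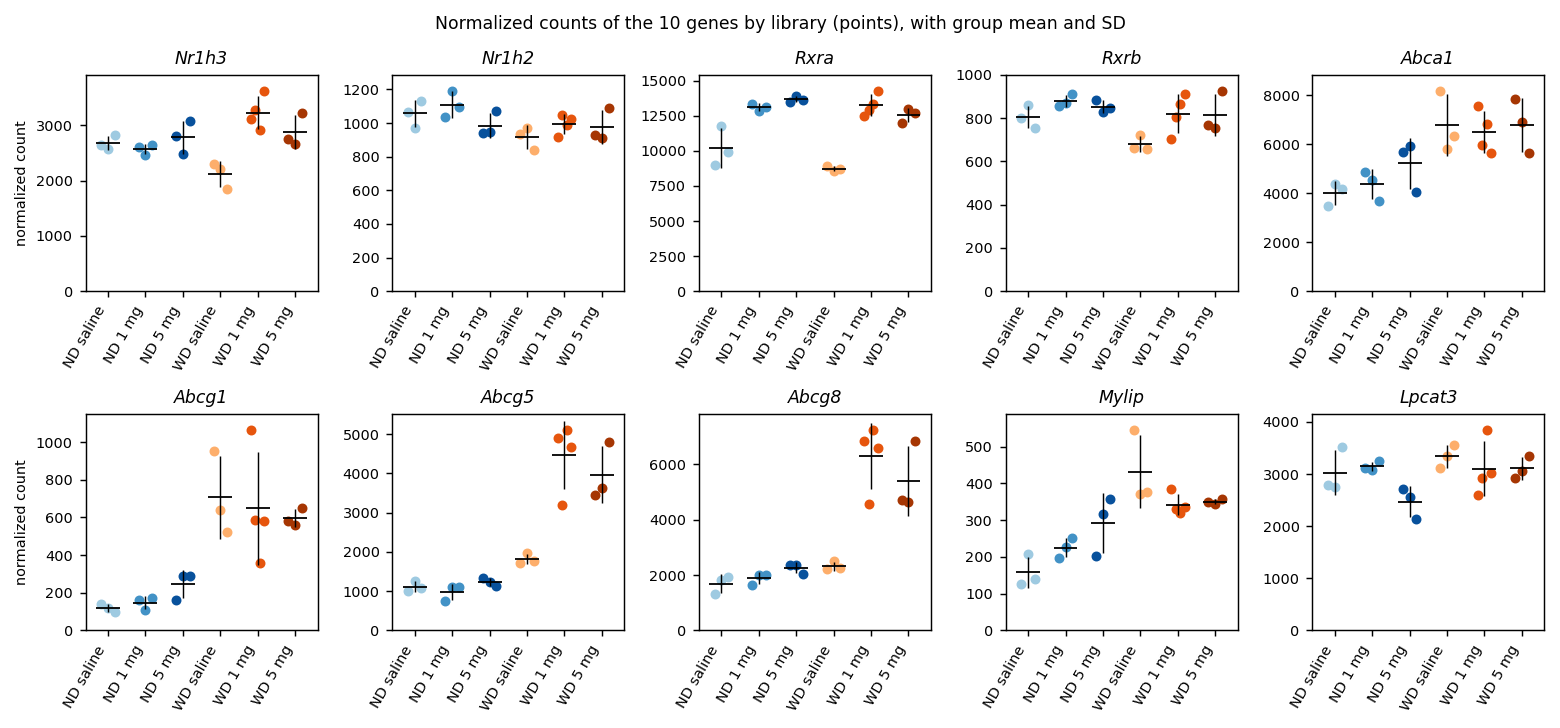
Normalized count of each of the 10 genes (linear axes from 0) in the 6 groups, 1 point per library, with the group mean (horizontal line) and SD (vertical line). Abcg5 and Abcg8 stand high in the WD groups given AN1284, from 3201 to 5105 and from 4562 to 7243, and Rxra stands low in both saline groups.

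In saline livers the sterol transporters and Mylip were called higher on the WD, and Nr1h3 lower. The calls of Abcg8 and Nr1h3 were lost when certain single libraries were left out, and that of Nr1h3 also on library totals. Of the 10 genes 5 were higher, 1 was lower and 4 were not called. Over all tested genes 28.1% were called higher and 25% lower in this comparison. The median log2 fold change of the 10 genes was 0.31, beside 0.01 over all genes.

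Abcg1 had the largest diet difference of the 10. Its normalized counts were 141, 120 and 98.6 in ND saline and 953, 640 and 524 in WD saline. Every WD value exceeded every ND value, and the log2 fold change was 2.52 ± 0.32 (adjusted p = 7.8e-06), a 5.73-fold difference. Mylip followed with 128, 207 and 140 in ND saline and 545, 371 and 378 in WD saline. The groups did not overlap, at a log2 fold change of 1.45 ± 0.20 (adjusted p = 1.64e-05). Abca1 rose by less, from 3462, 4395 and 4183 to 8199, 5797 and 6344. Its log2 fold change was 0.75 ± 0.17 (adjusted p = 0.00167), again with no overlap.

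Abcg1 is expressed in macrophages as well as in hepatocytes, so the macrophage markers are set beside it. All 12 genes of the macrophage and monocyte list were higher in WD saline than in ND saline (median difference 2.32 log2 units), and their summed normalized count was 4524 to 7007 in ND saline and 21777 to 22998 in WD saline. Spp1, which is also in the list of cholangiocyte markers, was at 2.26 (adjusted p = 0.000118). The part of these markers in the rise of Abcg1 was not tested. The 3 genes with profiles over the 19 libraries most like that of Abcg1 were Myo1f, Iqgap1 and Ear2, with root mean square differences of centred log2 values of 0.227, 0.230 and 0.235 beside an SD of Abcg1 itself of 1.11. Sinusoidal endothelial markers were higher in 7 of 8 genes (median 0.87). The share of all genes called higher in this comparison was 28.1%. The 3 genes most like Mylip were Arhgap31, Adgrl4 and Clec14a, at 0.16, 0.16 and 0.18 beside an SD of 0.53.

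The canalicular pair rose modestly on the WD in saline livers. Abcg5 had 998, 1272 and 1084 in ND saline and 1705, 1970 and 1779 in WD saline. These groups were apart, and the log2 fold change was 0.71 ± 0.18 (adjusted p = 0.00274). Abcg8 had 1306, 1839 and 1939 in ND saline and 2203, 2500 and 2257 in WD saline. The log2 fold change of 0.47 ± 0.18 (adjusted p = 0.035) was called, but it lost the call without ND saline replicate 1 or any 1 of the 3 WD saline replicates, with adjusted p up to 0.202. Over the same libraries all 11 hepatocyte markers tested were lower on the WD, at a median of −1.42 on the log2 scale and with a summed normalized count of 1513500 to 1942800 beside 3982900 to 4183700 in ND saline.

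Of the 4 receptor genes only Nr1h3 was called in saline livers, and it was lower on the WD. Nr1h3, which encodes the form of liver X receptor most abundant in liver, had 2646, 2564 and 2815 in ND saline and 2306, 2202 and 1846 in WD saline. The groups did not overlap, and the log2 fold change was −0.34 ± 0.11 (adjusted p = 0.0163). This call was lost without ND saline replicate 3 or WD saline replicate 3 (adjusted p up to 0.102), and dividing by library totals turned the value to 0.09 (adjusted p = 0.514). Nr1h2, the more widely expressed form, Rxra and Rxrb had log2 fold changes of −0.21, −0.22 and −0.24 that were not called (adjusted p = 0.0937, 0.0644 and 0.0573), and these too were above 0 when divided by library totals, at 0.23, 0.21 and 0.19. Rxra was called lower without ND saline replicate 1 (adjusted p = 0.0166), Nr1h2 without ND saline replicate 2 (0.0485) and Rxrb without replicate 1 of the WD livers given 1 mg/kg/day or replicate 3 of those given 5 mg/kg/day (lowest 0.0394). Lpcat3 was at 0.15 ± 0.13 (adjusted p = 0.349) and was called higher, at 0.58, only when divided by library totals.

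AN1284 on the WD raised 4 of the 10 genes at each dose and lowered none: Abcg5, Abcg8, Nr1h3 and Rxra. For 1 mg/kg/day 10.3% of all genes were called higher and 12.6% lower. For 5 mg/kg/day the shares were 5.51% and 7.03%. The medians of the 10 genes were 0.19 and 0.17 on the log2 scale, beside 0.01 and −0.01 over all genes. Both doses were compared with the same WD saline libraries, which also enter the diet comparison in saline livers.

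Abcg5 and Abcg8 had the largest AN1284 differences of the 10 genes on the WD. Abcg5 reached 4897, 3201, 5105 and 4671 with 1 mg/kg/day and 3453, 3632 and 4789 with 5 mg/kg/day, beside 1705 to 1970 in WD saline. The lowest treated library was well above the highest saline library. The log2 fold changes were 1.28 ± 0.16 (adjusted p = 2.74e-05) and 1.11 ± 0.18 (adjusted p = 0.000505), or 2.42-fold and 2.16-fold. Abcg8 reached 6833, 4562, 7243 and 6604 with 1 mg/kg/day and 4729, 4633 and 6849 with 5 mg/kg/day, beside 2203 to 2500. It too was apart from saline in every library, at log2 fold changes of 1.42 ± 0.17 (adjusted p = 1.31e-05) and 1.20 ± 0.18 (adjusted p = 0.000342). All 4 values were still called when libraries were scaled by their totals (log2 0.89 to 1.19).

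The pair kept a nearly fixed proportion within WD saline and within the WD group given 1 mg/kg/day. In single WD libraries the ratio of Abcg5 to Abcg8 was 0.774 to 0.788 in saline, 0.702 to 0.717 with 1 mg/kg/day and 0.699 to 0.784 with 5 mg/kg/day. On the ND it was 0.559 to 0.764 in saline, 0.459 to 0.550 with 1 mg/kg/day and 0.516 to 0.564 with 5 mg/kg/day. On the WD, replicate 2 was the lowest of the 1 mg/kg/day group for both genes, and replicate 3 the highest of the 5 mg/kg/day group. Of the 14742 other genes tested, Abcg8 was the one most like Abcg5 in profile, with a root mean square difference of 0.24 log2 units beside an SD of Abcg5 of 0.93. The next was 1700080G11Rik, at 0.43. The annotated genes overlap on opposite strands by 6710 bases, of which 82 are exonic in both, and whether reads were counted by strand is not given in the sources used here.

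**Figure D2:**
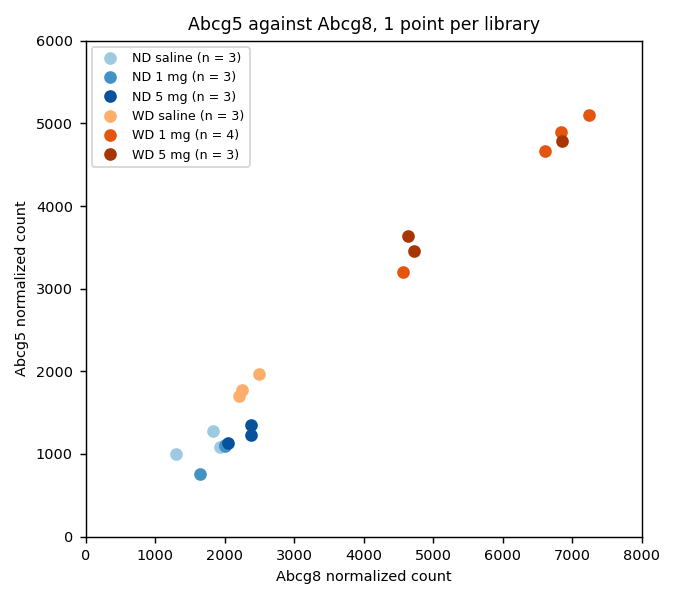
Normalized count of Abcg5 (vertical) against Abcg8 (horizontal) in each of the 19 libraries, coloured by group. The 7 WD libraries given AN1284 lie at the upper right, from 3201 for Abcg5 and 4562 for Abcg8 upward, clear of all 12 others, in which Abcg5 did not pass 1970.

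Hepatocyte markers moved in the same direction on the WD and are given beside the pair. With 1 mg/kg/day all 11 were higher than in WD saline (median log2 fold change 0.94) and with 5 mg/kg/day 9 of 11 (median 0.83), and their summed normalized count was 2634200 to 2908600 and 2128400 to 2762300 beside 1513500 to 1942800. Cholangiocyte markers fell in 7 of 7 and 5 of 7 genes (medians −1.82 and −1.60) and stellate cell markers in 7 and 5 of 10 (medians −1.07 and −0.82). On library totals 9 and 8 of the 11 hepatocyte markers were higher. Of the cholangiocyte markers 7 and 7, and of the stellate cell markers 10 and 7, were then lower. Among all genes 10.3% and 5.51% were higher and 12.6% and 7.03% lower at the 2 doses in the main fit. Between the diets at 1 mg/kg/day, no hepatocyte marker was called and the list's median was −0.23. In that comparison Abcg5 was 4.52-fold and Abcg8 3.31-fold higher on the WD. At 5 mg/kg/day 2 of 11 hepatocyte markers were lower on the WD (median −0.61) and none higher, beside 1.37% and 1.7% of all genes. The pair was 3.18-fold and 2.35-fold higher there. The part of these markers in the values of the pair was not tested.

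The receptor genes that rose with AN1284 on the WD were Nr1h3 and Rxra. Nr1h3 had 3108, 3275, 2910 and 3626 with 1 mg/kg/day and 2750, 2657 and 3224 with 5 mg/kg/day, all above the 1846 to 2306 of WD saline. Its log2 fold changes were 0.61 ± 0.11 (adjusted p = 0.000388) and 0.44 ± 0.11 (adjusted p = 0.0136). The second was not called without WD saline replicate 3 or replicate 3 of the treated livers (adjusted p up to 0.0956), nor when divided by library totals (0.22, adjusted p = 0.184). Rxra, the main retinoid X receptor of hepatocytes, had 8896, 8542 and 8712 in WD saline. It stood at 12501, 12901, 13347 and 14291 with 1 mg/kg/day and at 11968, 12961 and 12700 with 5 mg/kg/day. No treated value came near a saline value, and the log2 fold changes were 0.60 ± 0.09 (adjusted p = 0.000118) and 0.52 ± 0.10 (adjusted p = 0.00166), which fell to 0.37 and 0.30 on library totals and were still called.

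Nr1h2 and Rxrb were not called for either dose on the WD. Nr1h2 lay between 839 and 1090 in all 10 WD libraries, with log2 fold changes of 0.12 (95% interval −0.08 to 0.32) and 0.09 (−0.12 to 0.30). Rxrb lay between 656 and 927, with 0.27 ± 0.10 (adjusted p = 0.0553) and 0.26 ± 0.10 (adjusted p = 0.117). The first of these was called without replicate 1 of that group or replicate 3 of the 5 mg/kg/day group (lowest adjusted p 0.0139) and with a stricter filter (0.0497), and it fell to 0.03 on library totals.

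Abca1, Abcg1 and Mylip, the 3 genes most raised by the WD in saline livers, were not called for AN1284 on the WD. Abca1 stood at 7562, 5995, 6820 and 5631 with 1 mg/kg/day and 7850, 6913 and 5634 with 5 mg/kg/day, and its log2 differences from WD saline were −0.05 (95% interval −0.40 to 0.29) and 0.01 (−0.36 to 0.37). Abcg1 ranged widely at 1 mg/kg/day, with 1065, 586, 358 and 582, and stood at 580, 558 and 651 at 5 mg/kg/day. Its log2 differences were −0.19 (−0.81 to 0.44) and −0.20 (−0.87 to 0.47), so that changes within these intervals were not excluded. Of the macrophage list, 5 of 12 genes fell with 1 mg/kg/day and 3 of 12 with 5 mg/kg/day, and none rose, beside 12.6% and 7.03% of all genes lower. Its summed count was 10026 to 16725 and 12134 to 14609 beside 21777 to 22998. Spp1 is in this list and in that of cholangiocyte markers, and was at −3.00 with 1 mg/kg/day (adjusted p = 1.76e-05). The part of Spp1 in the summed count was not tested. Markers of Kupffer cells, the resident macrophages of the liver, were higher in 5 of 8 genes with 1 mg/kg/day (median 0.90) and in 1 of 8 with 5 mg/kg/day, and none was lower. Mylip stood at 385, 331, 318 and 336 and at 350, 344 and 358, with log2 differences of −0.31 (−0.71 to 0.08) and −0.27 (−0.70 to 0.15). All 3 of its values at 5 mg/kg/day, but not all at 1 mg/kg/day, lay below those of WD saline. Lpcat3 was at −0.12 (−0.38 to 0.14) and −0.10 (−0.38 to 0.17), and was called lower at 1 mg/kg/day only on library totals (−0.35, adjusted p = 0.0203).

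**Figure D3:**
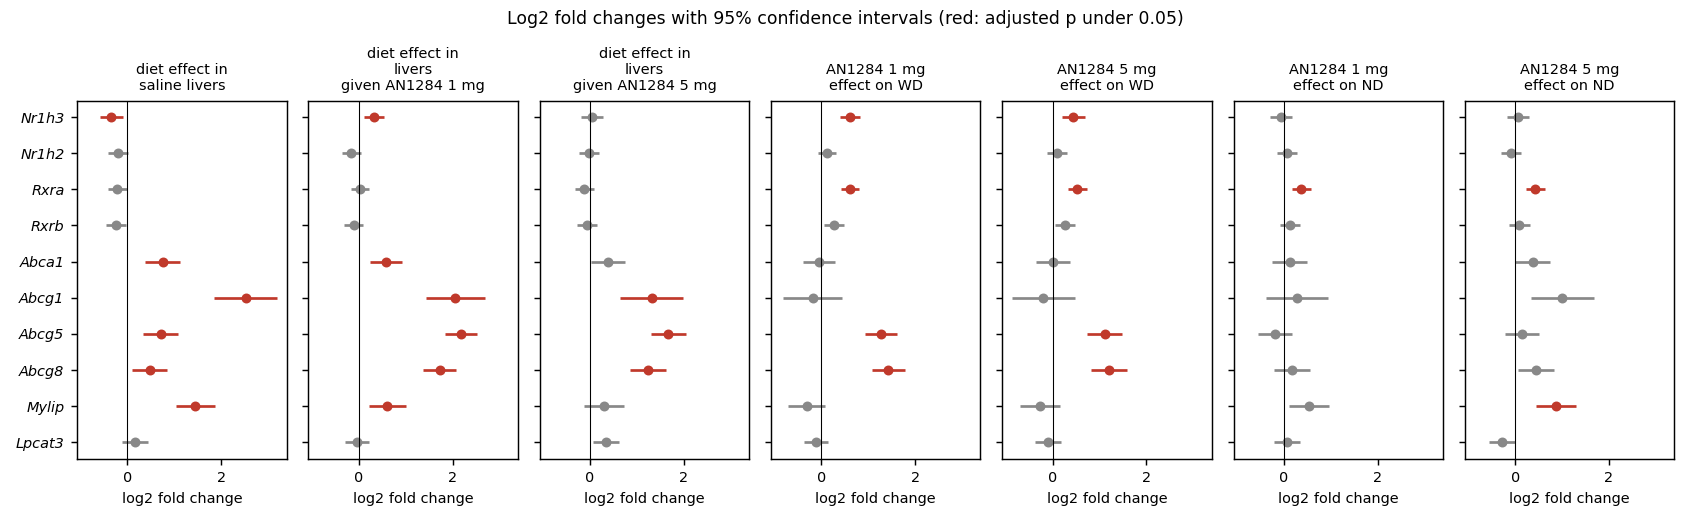
Log2 fold change (points) with its 95% confidence interval (lines) of each of the 10 genes in 7 comparisons; red marks adjusted p under 0.05. Abcg5 and Abcg8 lie right of 0 in the 3 comparisons between diets and both of AN1284 on the WD, and their intervals cross or come near 0 for AN1284 on the ND.

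On the ND, AN1284 raised Rxra at both doses and Mylip at 5 mg/kg/day, and no other gene of the 10 was called. Over all genes 4.63% were called in either direction for 1 mg/kg/day and 10.2% for 5 mg/kg/day, beside 1 and 2 of the 10. Rxra had 8958, 11768 and 9945 in ND saline, 13350, 12808 and 13144 with 1 mg/kg/day and 13463, 13912 and 13632 with 5 mg/kg/day. Treated and saline libraries did not overlap, at log2 fold changes of 0.37 ± 0.10 (adjusted p = 0.0379) and 0.43 ± 0.10 (adjusted p = 0.0132). The first was not called in 9 of the 19 fits that each left out 1 library (adjusted p up to 0.188), nor when only the groups compared were fitted (0.348). The second was not called without ND saline replicate 1 or replicate 2 of the treated livers (up to 0.0595).

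Mylip stood at 198, 227 and 251 with 1 mg/kg/day and 203, 317 and 359 with 5 mg/kg/day on the ND, beside 128, 207 and 140 in saline. The 5 mg/kg/day group overlapped saline by 1 library, and its log2 fold change was 0.87 ± 0.20 (adjusted p = 0.0139). It was not called without ND saline replicate 1 or 3 or without replicate 2 or 3 of the treated livers (adjusted p up to 0.0702). Abcg1 with 5 mg/kg/day was at 163, 290 and 287, all above the 98.6 to 141 of saline, but its log2 fold change of 1.00 ± 0.32 narrowly missed the threshold (adjusted p = 0.0523) and passed it in 9 of the 28 alternatives. Macrophage markers were higher in 4 of 12 genes and Kupffer cell markers in 3 of 8 in that comparison, and their part was not tested. The share of all genes called in either direction there was 10.2%. Abca1 had 5698, 5953 and 4035, at 0.37 ± 0.17 (adjusted p = 0.175).

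Abcg5 and Abcg8 were not called for AN1284 on the ND. Abcg5 had 756, 1106 and 1095 with 1 mg/kg/day and 1344, 1227 and 1130 with 5 mg/kg/day. They overlapped the 998 to 1272 of ND saline, with 756 below that range and 1344 above it, and the log2 fold changes were −0.20 (95% interval −0.56 to 0.17) and 0.15 (−0.22 to 0.51). Abcg8 had 1646, 2011 and 2004 and then 2383, 2378 and 2045, at 0.17 (−0.21 to 0.55) and 0.44 (0.06 to 0.82, adjusted p = 0.121), and the latter was called on library totals (0.59, adjusted p = 0.0395). Nr1h3 stayed at 2461 to 3072 over the 6 treated ND libraries, with −0.06 (−0.29 to 0.18) and 0.05 (−0.18 to 0.29). Lpcat3 with 5 mg/kg/day had 2710, 2562 and 2133, all below the saline range of 2757 to 3519, but −0.29 ± 0.13 was not called (adjusted p = 0.158).

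The effect of AN1284 was then compared between the diets. Over all genes 20.6% were called in either direction for 1 mg/kg/day and 20.2% for 5 mg/kg/day, beside 4 and 3 of the 10 genes. The effect on Abcg5 was larger on the WD by 1.47 ± 0.24 log2 units at 1 mg/kg/day (adjusted p = 0.000424) and by 0.96 ± 0.25 at 5 mg/kg/day (adjusted p = 0.013). For Abcg8 these differences were 1.25 ± 0.25 (adjusted p = 0.00197) and 0.76 ± 0.26 (adjusted p = 0.0435). At 5 mg/kg/day the call for Abcg8 was lost in 8 of the 19 fits that left out 1 library (adjusted p up to 0.119), and on library totals both transporters were below the threshold at that dose (0.59, adjusted p = 0.0898, and 0.38, adjusted p = 0.271). Nr1h3 differed by 0.67 ± 0.15 at 1 mg/kg/day (adjusted p = 0.00543), which library totals brought to 0.27 (adjusted p = 0.194), and by 0.39 ± 0.16 at 5 mg/kg/day (adjusted p = 0.0873).

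Mylip differed in the opposite direction, by −0.84 ± 0.28 (adjusted p = 0.0371) and −1.15 ± 0.29 (adjusted p = 0.0108). Its log2 fold changes with AN1284 were −0.31 and −0.27 on the WD and 0.53 and 0.87 on the ND, of which only that of 0.87 was called on its own. The first call was lost in 8 of the 19 fits that left out 1 library (adjusted p up to 0.116). For Rxra the difference between the diets was 0.24 (95% interval −0.04 to 0.52, adjusted p = 0.217) and 0.10 (−0.19 to 0.39, adjusted p = 0.645), and it was below 0 on library totals (−0.16 and −0.28). Abcg1 at 5 mg/kg/day was at −1.21 ± 0.45 (adjusted p = 0.0655) and passed in 5 of the 28 alternatives. Each of these values contains the ND saline libraries.

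The diets were also compared within each AN1284 dose. Saline libraries are not part of these contrasts but enter the shared estimate of the spread. At 1 mg/kg/day 8.05% of all genes were called higher and 4.92% lower, and 6 of the 10 genes were higher and none lower. At 5 mg/kg/day the shares were 1.7% and 1.37%, and 3 of the 10 were higher and none lower. Abcg5 was higher on the WD by 2.18 ± 0.16 log2 units at 1 mg/kg/day (adjusted p = 1.08e-06) and by 1.67 ± 0.18 at 5 mg/kg/day (adjusted p = 5.94e-05). Abcg8 was higher by 1.73 ± 0.17 (adjusted p = 1.25e-05) and 1.23 ± 0.18 (adjusted p = 0.000757). Neither gene lost these calls in any of the 28 alternatives.

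Abcg1 was higher by 2.06 ± 0.30 at 1 mg/kg/day (adjusted p = 0.000555) and by 1.31 ± 0.32 at 5 mg/kg/day (adjusted p = 0.0314), and the latter was lost when ND replicate 1 or 2 or any 1 of the 3 WD replicates of that dose was left out (adjusted p up to 0.155). Abca1 was higher by 0.57 ± 0.16 at 1 mg/kg/day (adjusted p = 0.027), a call lost without ND replicate 2 or 3 or WD replicate 1 or 3 of that dose (up to 0.0951), and was at 0.39 ± 0.17 at 5 mg/kg/day (adjusted p = 0.27). Mylip at 0.60 ± 0.19 (adjusted p = 0.0416) and Nr1h3 at 0.33 ± 0.11 (adjusted p = 0.0478) were called at 1 mg/kg/day, but in 8 and 12 of the 19 fits without 1 library they were not (up to 0.136 and 0.166; for Nr1h3 these include the fits without ND saline replicate 1 or 3 or WD saline replicate 2), and Mylip was not on library totals (0.0539). At 5 mg/kg/day they stood at 0.30 (95% interval −0.12 to 0.72) and 0.05 (−0.19 to 0.28). Rxra differed little between the diets once AN1284 was given, by 0.02 (−0.18 to 0.21) and −0.12 (−0.33 to 0.08). Kupffer cell markers were higher on the WD in 5 of 8 genes and lower in 1, and macrophage markers higher in 6 of 12, at 1 mg/kg/day. No gene of these 2 lists was called at 5 mg/kg/day.

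No difference between the doses was called for any of the 10 genes. On the WD no gene of all 14743 was called by limma (0%, with 776 genes at an unadjusted p under 0.05), and on the ND 0.0407% were, which is 6 genes. The log2 differences of 5 from 1 mg/kg/day on the WD were −0.17 (95% interval −0.51 to 0.18) for Abcg5, −0.23 (−0.58 to 0.13) for Abcg8, −0.17 (−0.39 to 0.05) for Nr1h3 and −0.08 (−0.27 to 0.11) for Rxra. With 3 and 4 libraries, differences within these intervals were not excluded. On the ND the widest were 0.73 ± 0.32 for Abcg1 (adjusted p = 0.372) and −0.36 ± 0.13 for Lpcat3 (adjusted p = 0.3).

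Other established targets of the liver X receptors rose more often than they fell on the WD, with genes of fatty acid synthesis and uptake among those that rose. Of 18 tested, 10 rose and 4 fell in saline livers (median 0.86 log2 units, all genes 0.01), beside 28.1% and 25% of all genes. At the 1 mg/kg/day dose 10 rose and none fell (0.71, all genes −0.01), and at the 5 mg/kg/day dose 6 rose and none fell (0.76, all genes −0.01). Among all genes 8.05% rose and 4.92% fell at 1 mg/kg/day, and 1.7% and 1.37% at 5 mg/kg/day. Cd36, a fatty acid transporter, rose from 1072 ± 455 to 8736 ± 1356 in saline livers (SD, n = 3 each) at a log2 fold change of 3.12 ± 0.24 (adjusted p = 4.5e-08). Scd2 and Acaca, enzymes of fatty acid synthesis, rose by 3.03 ± 0.26 (adjusted p = 1.2e-07) and 1.76 ± 0.20 (adjusted p = 1.4e-06). The apolipoprotein gene Apoc1 fell by 1.20 on the log2 scale (adjusted p = 0.00016). Srebf1, the regulator of fatty acid synthesis that the receptors induce, was picked after its values were seen and was higher by 0.85 ± 0.24 (adjusted p = 0.0067). With AN1284 1 mg/kg/day on the WD Srebf1 was at 0.0020 ± 0.23 (adjusted p = 0.996).

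With AN1284 on the WD most of these targets were not called, 12 of 18 at 1 mg/kg/day and 14 at 5 mg/kg/day. At 1 mg/kg/day 2 of 18 rose and 4 fell (median −0.18, all genes 0.01), beside 10.3% and 12.6% of all genes. With 5 mg/kg/day 2 rose and 2 fell (median −0.14, all genes −0.01), beside 5.51% and 7.03%. On library totals the counts were 1 higher and 5 lower (median −0.41), and 0 higher and 3 lower (median −0.37). Cd36 fell by 0.92 on the log2 scale (adjusted p = 0.007), Acaca by 1.00 (adjusted p = 0.00064), Scd2 by 1.45 (adjusted p = 0.00035) and Fasn, fatty acid synthase, by 1.42 (adjusted p = 0.0053) at 1 mg/kg/day. Apoc1 rose by 0.88 ± 0.20 (adjusted p = 0.0035). On the ND 1 fell and none rose at 1 mg/kg/day, and 1 rose and 2 fell at 5 mg/kg/day. The shares of all genes called there in either direction were 4.63% and 10.2%.

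Genes of cholesterol synthesis and uptake under SREBP2 fell on the WD in 8 to 14 of 17 genes at each treatment. Of 17 tested, 14 fell and none rose in saline livers (median −1.07, and 11 fell and 1 rose on library totals, median −0.64). At 1 mg/kg/day 12 fell and none rose (−1.17), and at 5 mg/kg/day 8 fell and none rose (−0.72). Over all genes 25% were lower in saline livers, 4.92% at 1 mg/kg/day and 1.37% at 5 mg/kg/day. Msmo1, an enzyme of lanosterol demethylation, had 4333 ± 759 in ND saline and 1170 ± 83.0 in WD saline (SD, n = 3 each), at −1.88 ± 0.19 (adjusted p = 4.8e-07). Fdft1, squalene synthase, was at −1.48 ± 0.15 (adjusted p = 5e-07). With AN1284 on the WD none was called at 5 mg/kg/day (2 lower on library totals, median −0.36). At 1 mg/kg/day 5 of 17 fell (11 on library totals), beside 12.6% of all genes. Among the 5 was Mvd, an enzyme of the mevalonate pathway, at −1.14 ± 0.26 (adjusted p = 0.0039). On the ND 2 and 4 of 17 fell at the lower and the higher dose, beside 4.63% and 10.2% of all genes called in either direction.

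**Figure D4:**
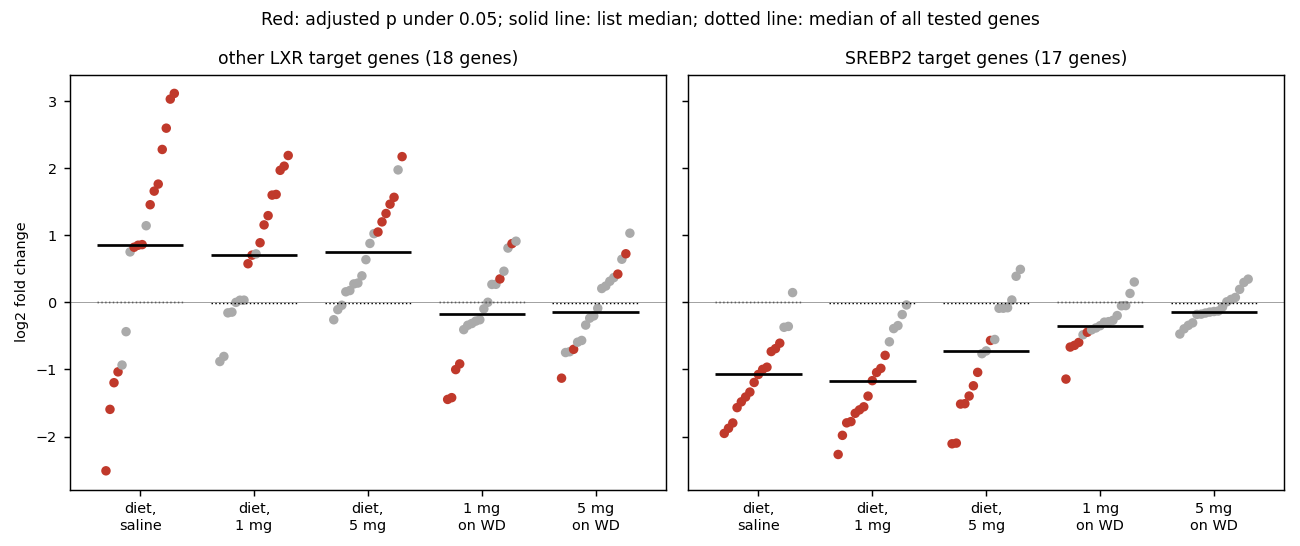
Log2 fold change of each of 18 other liver X receptor targets (left) and 17 SREBP2 targets (right), 1 point per gene, in 5 comparisons; red marks adjusted p under 0.05, the solid line is the list median and the dotted line the median of all tested genes. The medians of the targets on the left are 0.71 to 0.86 in the comparisons between diets and below 0 for AN1284 on the WD, and those on the right are below 0 throughout.

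Of the enzymes that make or break down the oxysterol ligands, 6 of 9 listed were tested, and 1 was higher and 3 lower on the WD in saline livers (median −0.81, and −0.38 on library totals). Over all genes 28.1% were higher and 25% lower in that comparison. Cyp7b1, which hydroxylates oxysterols and so inactivates them, had 7484 ± 1083 in ND saline and 1127 ± 147 in WD saline, at −2.73 ± 0.24 (adjusted p = 1.31e-07), and Cyp27a1, which makes 27-hydroxycholesterol, was at −1.03 ± 0.12 (adjusted p = 1.8e-06). With AN1284 1 mg/kg/day on the WD Cyp7b1 rose by 1.07 ± 0.22 (adjusted p = 0.0019), to 2429 ± 683 (SD, n = 4), and Cyp27a1 by 0.57 ± 0.11 (adjusted p = 0.00093). At 5 mg/kg/day 2 of the 6 were higher and none lower (median 0.20), but none was higher and 1 lower on library totals (median −0.02). Among all genes 5.51% were higher and 7.03% lower at that dose on the WD.

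Among 14 other receptors that pair with a retinoid X receptor, 5 were higher and 4 lower on the WD in saline livers (median 0.20, and 8 and 3 on library totals). With AN1284 1 mg/kg/day on the WD 1 was higher and 2 lower (1 and 5 on library totals). Over all genes 28.1% were higher and 25% lower with the diet, and 10.3% and 12.6% with 1 mg/kg/day on the WD. Ppara, the receptor that drives fatty acid oxidation, was higher on the WD by 1.07 ± 0.16 (adjusted p = 2.8e-05), and Nr1i2 and Nr1i3, the xenobiotic receptors, lower by −0.79 ± 0.15 (adjusted p = 0.00025) and −1.34 ± 0.26 (adjusted p = 0.00034). Of 14 nuclear receptor coregulators 2 were higher and 2 lower with the diet and 1 and 1 with 1 mg/kg/day on the WD (9 and 2, and 1 and 5, on library totals). Nrip1, a corepressor, was at 1.06 ± 0.18 with the diet (adjusted p = 8.2e-05) and −0.51 ± 0.16 with AN1284 (adjusted p = 0.03). Of 5 lysophospholipid acyltransferases related to Lpcat3, 4 were higher on the WD (median 1.61), led by Lpcat2 at 2.22 ± 0.30 (adjusted p = 1.3e-05), and 2 were lower with 1 mg/kg/day on the WD, although Lpcat3 was called in neither comparison.

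Of 19 other genes of sterol and bile lipid transport 7 were higher and 6 lower on the WD in saline livers (median 0.02). Over all genes 28.1% were higher and 25% lower in that comparison. With AN1284 1 mg/kg/day on the WD 6 were higher and 3 lower, beside 10.3% and 12.6% of all genes. The median was 0.11, and −0.13 with 4 higher and 5 lower on library totals. Abcb4, which moves phosphatidylcholine into bile beside Abcg5 and Abcg8, was lower with AN1284 on the WD, where that pair was higher: it was at 6490 ± 524 in ND saline, 12542 ± 1630 in WD saline and 8593 ± 165 with 1 mg/kg/day on the WD. Its log2 fold changes were 0.94 ± 0.12 (adjusted p = 4.8e-06) with the diet and −0.54 ± 0.11 (adjusted p = 0.0016) with AN1284. Scarb1, the hepatic receptor for HDL, was level between the diets in saline livers (0.02 ± 0.11, adjusted p = 0.91, but 0.45 on library totals) and higher with 1 mg/kg/day on the WD (0.62 ± 0.10, adjusted p = 0.00027). Lcat, which esterifies cholesterol on HDL, was at −1.06 ± 0.11 with the diet (adjusted p = 5.6e-07) and 0.82 ± 0.10 with AN1284 (adjusted p = 1.8e-05).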

How the data were processed

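Per the submitters' processing notes, which give no order or role, the authors used cutadapt 1.18, TopHat2 2.1.1, HTSeq 0.6.0, DESeq2 1.22.1 and the GRCm38 build. The deposited table holds raw and normalized counts per library, a unit recorded as other because 6252 of the 54838 genes have a question mark for the raw count, and the authors' own comparisons, which were not used. Each normalized count equalled the raw count divided by 1 size factor per library. Whether HTSeq counted by strand is not given in the sources used here.

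The 6 groups came from the labels. Libraries were pooled and sequenced in 2 runs; which run held which library is not given, so run and group cannot be told apart. Genes that reached a normalized count of 10 in 3 or more libraries (14743) were fitted in 1 model of 6 group means with limma 3.58.1 (trend, robust; R 4.3.3) on log2(normalized count + 1), for 11 comparisons with Benjamini-Hochberg adjustment. edgeR and DESeq2 were not run here, because 6252 genes of the whole table have a question mark for the raw count. The tested genes had raw counts, and limma voom on these was an alternative. The code was tested on simulated data. No 2 libraries of a group held the same values (SD of log2 differences over genes 0.38 to 0.707).

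The 10 genes and 16 gene lists were chosen with earlier results of these data known. Besides the 10, the named genes were up to 4 per list by adjusted p for the diet in saline livers, up to 2 more for AN1284 1 mg/kg/day on the WD, and the 3 most like each of the 10 in profile; 1 listed symbol was not in the table. Promoter windows (250 bases before and 50 after a start) were from RefSeq, GRCm38.p6. Gene positions and exon lengths were from the GENCODE annotation of GRCm38. Some genes of these lists that the rule would name are not reported here.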

Additional observations from a re-analysis of the deposited data

Results flagged for a closer look

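For 4 of the 10 genes the effect of AN1284 differed between the diets when the difference itself was tested in limma. At 1 mg/kg/day the log2 effect on the WD exceeded that on the ND by 1.47 for Abcg5 (adjusted p = 0.000424), 1.25 for Abcg8 (0.00197) and 0.668 for Nr1h3 (0.00543), and for Mylip the difference was −0.845 (0.0371). At 5 mg/kg/day it was 0.964 for Abcg5 (0.013), 0.759 for Abcg8 (0.0435) and −1.15 for Mylip (0.0108). Over all genes 20.6% and 20.2% were called in these comparisons. Mylip at 1 mg/kg/day lost the call in 8 of the 19 fits that left out 1 library (adjusted p up to 0.116). Abcg8 at 5 mg/kg/day also lost it in 8 of 19 (up to 0.119). On library totals Nr1h3 at 1 mg/kg/day (0.27, adjusted p = 0.194) and Abcg5 and Abcg8 at 5 mg/kg/day (0.59 and 0.38, adjusted p = 0.0898 and 0.271) were not called. All 7 contain the ND saline libraries, in which the 8 heat shock genes summed to 56717 to 65139 normalized counts; the part of that in these values was not tested.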

How the results depend on the processing

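Over 28 alternatives and 110 fold changes of the 10 genes, 2968 of 3080 values stayed on the same side of the threshold, 84 lost the call, 27 gained it and 1 reversed; values called in neither fit are counted as the same whatever their sign. The reversed value was Nr1h3 for the diet in saline livers, at 0.0906 on library totals. With all libraries kept, the count of the 10 genes called moved by over 1.5 times for AN1284 on the ND: at 5 mg/kg/day from 2 to 4 on library totals and to 1 with only the groups compared, and at 1 mg/kg/day from 1 to 0 without a filter and to 0 with only the groups compared. Leaving out 1 library in turn gave 4 to 7 of the 10 genes for the diet in saline livers, 3 to 6 and 2 to 3 for the diet at 1 and 5 mg/kg/day, 4 to 5 and 3 to 4 for AN1284 on the WD, 0 to 2 and 0 to 3 on the ND, 3 to 4 and 2 to 4 for the differences between diets, and 0 for the doses.

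Same-numbered libraries of different groups did not deviate together: their 45 correlations ran from −0.274 to 0.235 (median 0.0106), beside −0.251 to 0.290 for 105 differently numbered pairs. With a replicate block, the called genes of the 10 numbered 6 for the diet in saline livers, 4 and 3 for the diet at 1 and 5 mg/kg/day, 4 and 4 for AN1284 on the WD, and 1 and 2 on the ND; Nr1h3 (0.27, adjusted p = 0.128) and Mylip (0.61, adjusted p = 0.0752) lost the diet call at 1 mg/kg/day, and Mylip its difference between diets (−0.84, adjusted p = 0.0704).

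Counts over all genes that moved by over 1.5 times were, for AN1284 5 mg/kg/day on the ND, 1499 to 945 with limma voom; on library totals, 1849 to 3122 for 5 mg/kg/day on the WD, 683 to 1555 for 1 mg/kg/day on the ND, and 3044 to 5334 and 2973 to 4986 for the differences between diets; with only the groups compared, 1912 to 857 for the diet at 1 mg/kg/day, 683 to 80 for 1 mg/kg/day on the ND and 6 to 0 for the doses on the ND; and 6 to 3 there with the block. Counted reads were 23326800 or more per library, and the number of libraries, 3 or 4 a group, sets the intervals.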
